A study of Arabidopsis thaliana with 6 samples.

Results

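The cytosolic large ribosomal subunit (60S) was followed through 60 nuclear genes of its proteins, listed by locus. Another 71 genes of 60S proteins were listed apart, and the term 60S genes leaves them out unless stated. Of the 60, 37 were measured by a probe set that the probe annotation assigns to that gene alone. On the array 13287 genes had such a probe set. A further 4 genes lay on 2 probe sets that each cover a pair of genes, and 3 were named only through Supplementary Data 1, a table of probe sets that changed in these arrays. Both kinds are described apart and enter no count. The remaining 16 genes had no probe set named in the tables used here and were not analysed, among them *STV1* (an L24 gene), *SAC52* and *RPL10B* (L10), *ATL5* and *RPL5B* (L5) and *RPL3B* (L3).

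Transcripts were measured in whole seedlings (root, hypocotyl and cotyledon together) of Col-0, the wild-type, and of *rcb-10* in the Col-0 background. The *rcb-10* mutant is disrupted by T-DNA within the second intron of *RCB* (*REGULATOR OF CHLOROPLAST BIOGENESIS*), its protein does not accumulate, and it is a single allele. Seeds of both genotypes were stratified in darkness for 4 days, and the seedlings were harvested after 4 days under constant R light of 10 μmol m-2 s-1 without sucrose. Each genotype has 3 biological replicates, grown and sampled separately, with 1 ATH1 array each, and the comparison asks which transcripts depend on RCB in R light.

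Cytosolic ribosomes make the proteins encoded in the nucleus, including most chloroplast proteins. The large subunit joins amino acids at its catalytic centre, passes the chain through an exit tunnel, and carries mobile stalks that handle tRNAs and translation factors. In *Arabidopsis* each of its proteins is encoded by a small family of nuclear genes, which are typically expressed most strongly where cells grow and divide.

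Arrays of the same genotype correlated at 0.945 to 0.953 across the log2 signals of all 22746 probe sets tested, and arrays of different genotypes at 0.919 to 0.928. The highest signal of the array's *trp* controls, bacterial sequences used here as background, was 43.8, and 19.5% to 21.7% of probe sets lay below it on an array. No probe set was assigned to *RCB*, so the genotype labels were not checked against their target. In whole seedlings, fewer cells that express a gene and less RNA per cell cannot be told apart.

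Transcripts of 19 of the 37 measured 60S genes fell in *rcb-10* and none rose (limma, Benjamini-Hochberg adjusted p under 0.05). Over all probe sets 16.9% were called, 10.2% lower and 6.76% higher, against 51.35% and 0% of the 60S genes. The fitted changes of the 19 genes ran from -1.61 to -0.44 on the log2 scale, and their adjusted p from 0.00793 to 0.0450. The median log2 change of the 37 genes was -0.61, where that of all probe sets was -0.04. A negative change was fitted for 32 genes and a positive one for 5. In 27 genes every *rcb-10* array lay below every Col-0 array and in 5 genes every one lay above, which held for 23.1% and 17.4% of all probe sets. At an unadjusted p under 0.05, 29 of the 37 genes passed, beside 33.3% of all probe sets.

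**Figure D1:**
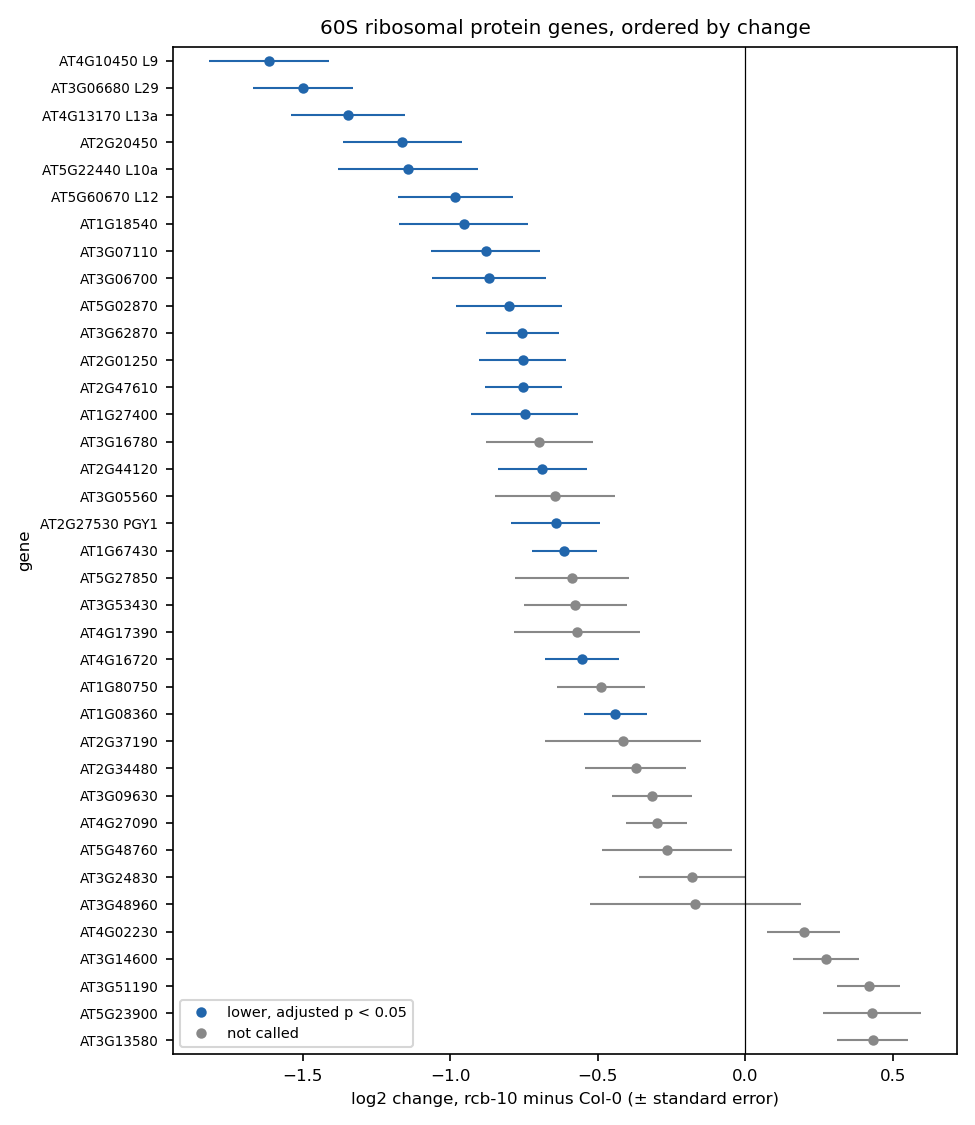
Log2 change between *rcb-10* and Col-0 (horizontal axis, bars are standard errors, n = 3 arrays per genotype) for each of the 37 measured 60S genes, ordered by change, with the protein name where the sources give one. The 19 genes in blue were called lower, the 18 in grey were not called, and the 5 at the foot of the plot have positive changes.

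The count of called genes depended on scale and on single arrays. After quantile normalization 20 genes were lower, including all 19, and 1 was higher, beside 8.47% and 7.58% of all probe sets. With each array centred on its median 11 of the 19 remained lower and 3 others were higher, beside 6.56% and 11.2%. Centring moved the median change of all probe sets by 0.17, and the median of the 60S genes then stood at -0.44, against -0.67 after quantile normalization. With an array left out, between 3 and 9 genes were lower. Dropping Col-0 replicate 1 left 4 genes, replicate 2 left 9 and replicate 3 left 7, while dropping *rcb-10* replicate 1 left 4 and either of its other replicates left 3. The number of probe sets called lower also shrank in these refits, from 2315 (10.2%) to between 782 (3.44%) and 1257 (5.53%).

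The 60S genes differed between replicates as well as between genotypes. Relative to the Col-0 mean of each gene, the median log2 signal of the 37 genes was 0.20, -0.16 and -0.04 on Col-0 arrays 1 to 3. The same median was -0.79, -0.65 and -0.60 on *rcb-10* arrays 1 to 3, so that the medians of the genotypes did not overlap. Col-0 replicate 1 gave the highest Col-0 signal for 31 of the 37 genes, and *rcb-10* replicate 1 the lowest *rcb-10* signal for 27. The 37 probe sets together held 0.839%, 0.687% and 0.737% of the summed signal of the Col-0 arrays and 0.476%, 0.516% and 0.523% of that of the *rcb-10* arrays.

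**Figure D2:**
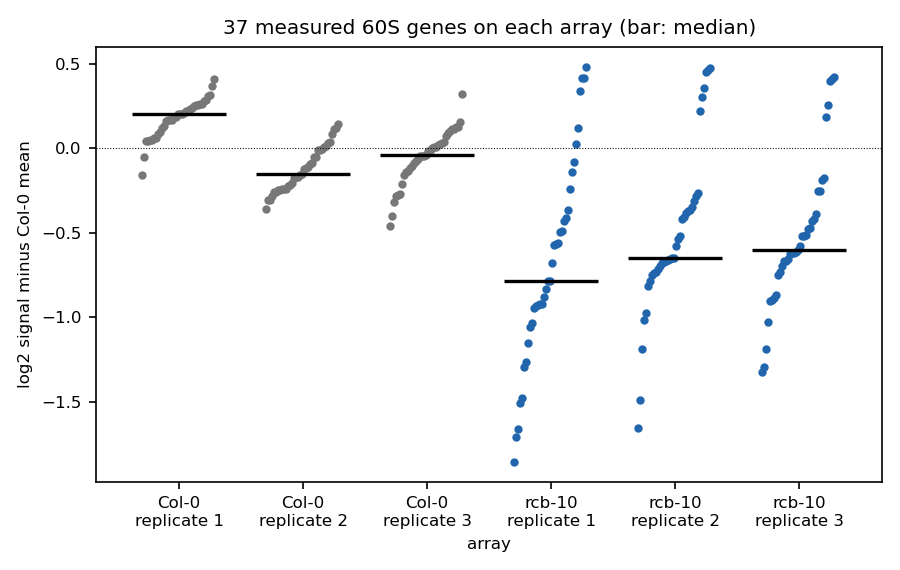
Log2 signal of the 37 measured 60S genes on each array, as the difference from the Col-0 mean of the gene (vertical axis), with 1 point per gene and a bar at the median. The medians of the Col-0 arrays lie between -0.16 and 0.20 and those of the *rcb-10* arrays between -0.79 and -0.60. The 5 genes with positive fitted changes lie above 0 on every *rcb-10* array. They are joined by AT3G48960 on *rcb-10* array 2 and, barely, by AT3G24830 on *rcb-10* array 1.

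A protein name was given by the sources for only 6 of the measured genes, and 5 of these names come from Supplementary Data 1, a table selected for change, so that which genes carry a name here depends on how they moved. Genes without a name are given by locus, and some of them may encode the same proteins as named genes. A named gene therefore does not stand for all genes of its protein.

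L9 lies close to the site where translation factors dock on the large subunit. An L9 gene, AT4G10450, gave signals of 1298, 917 and 1070 on the Col-0 arrays and 299, 343 and 432 on the *rcb-10* arrays. The highest *rcb-10* array stayed well below the lowest Col-0 array. The gene fell by 1.61 ± 0.20 (SE) on the log2 scale, 3.06-fold (adjusted p = 0.00997, limma).

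L12 forms the base of the stalk that recruits elongation factors, as in the yeast ribosome. An L12 gene, AT5G60670, read 2804, 2731 and 2062 in Col-0 and 1044, 1426 and 1376 in *rcb-10*. The lowest Col-0 array stayed above the highest *rcb-10* array, and the gene fell 1.98-fold (-0.98 ± 0.19 log2, adjusted p = 0.0268).

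L10a builds the mobile stalk at which spent tRNAs leave the ribosome. The L10a gene AT5G22440 read 1560, 1057 and 1505 in Col-0 and 476, 670 and 723 in *rcb-10*, and fell 2.21-fold (-1.14 ± 0.24 log2, adjusted p = 0.0302). *PGY1* (*PIGGYBACK1*, AT2G27530) encodes another L10a protein and is known from leaf patterning mutants. It read 4466, 3478 and 3398 in Col-0 and 2534, 2246 and 2438 in *rcb-10*, with no overlap, and fell by 0.64 ± 0.15 on the log2 scale (adjusted p = 0.0409). The fitted change of *PGY1* was smaller than that of AT5G22440, and their difference was not tested.

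L13a and L29 sit on the body of the subunit. An L13a gene, AT4G13170, read 1716, 1461 and 1273 in Col-0 and 466, 647 and 645 in *rcb-10*, a fall of 2.54-fold (-1.35 ± 0.19 log2, adjusted p = 0.0133). An L29 gene, AT3G06680, read 2136, 1630 and 1913 in Col-0 and 575, 670 and 766 in *rcb-10*, and it fell 2.83-fold (-1.50 ± 0.17 log2, adjusted p = 0.00793). In both genes every *rcb-10* signal was below every Col-0 signal by a wide margin. On the chromosome, AT3G06680 is separated by a single protein-coding gene from another listed 60S gene, AT3G06700. That neighbour read 2069, 1696 and 1415 in Col-0 and 819, 1088 and 917 in *rcb-10*, and it fell too (-0.87 ± 0.19 log2, adjusted p = 0.0357).

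AT2G20450 completed the 5 genes that fell at least 2-fold, a criterion that 4.41% of all probe sets met downward and 2.8% upward. It read 676, 488 and 580 in Col-0 and 207, 293 and 282 in *rcb-10*, and fell 2.24-fold (-1.16 ± 0.20 log2, adjusted p = 0.0194). The calls of AT4G10450, AT4G13170 and AT3G06680 held whichever array was left out. AT2G20450 was called in 2 of the 6 refits and AT5G22440 in 1, and 7 of the 19 genes were called in none.

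**Figure D3:**
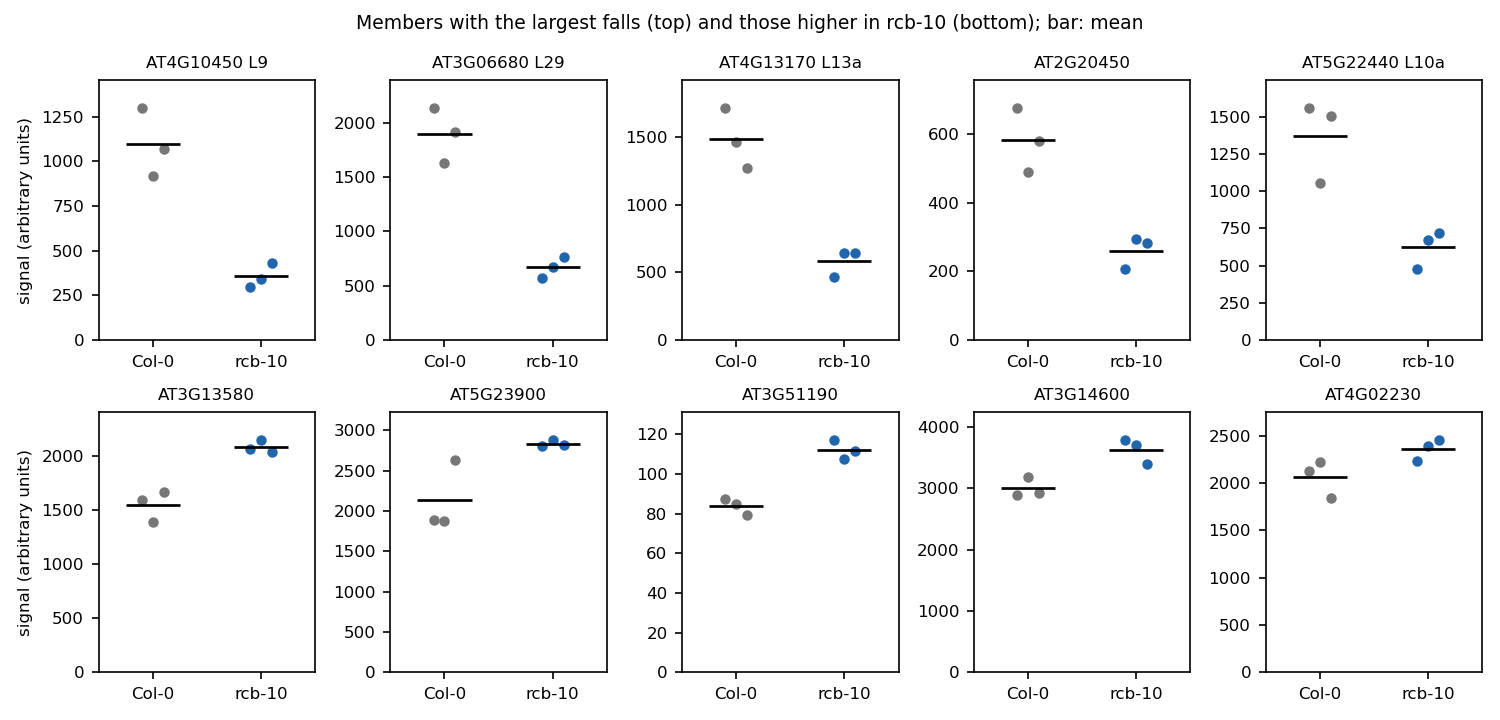
Signal in arbitrary units (vertical axis from 0, a scale for each gene) on the 3 Col-0 arrays (grey) and 3 *rcb-10* arrays (blue), with a bar at the mean, for the 5 genes with the largest falls (top) and the 5 with positive changes (bottom). The arrays of the genotypes do not overlap in any of the 10 plots, and none of the lower 5 genes was called.

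The remaining called genes changed by less than 2-fold. AT1G18540 read 3573, 2540 and 3247 in Col-0 and 1256, 1930 and 1671 in *rcb-10* (-0.95 ± 0.22 log2, adjusted p = 0.0391). AT3G07110 read 4266, 3180 and 3757 in Col-0 and 1664, 2147 and 2288 in *rcb-10* (-0.88 ± 0.18 log2, adjusted p = 0.0310). AT5G02870 read 6535, 4870 and 6206 in Col-0 and 2838, 3463 and 3803 in *rcb-10* (-0.80 ± 0.18 log2, adjusted p = 0.0371). In all 3 genes the lowest Col-0 array was replicate 2 and the lowest *rcb-10* array replicate 1, and the genotypes did not overlap. AT3G62870 had close *rcb-10* arrays, at 3020, 3135 and 3095 against 5907, 4874 and 4899 in Col-0 (-0.76 ± 0.12 log2, adjusted p = 0.0173). AT2G01250 read 6310, 4989 and 5649 in Col-0 and 2938, 3526 and 3572 in *rcb-10* (-0.75 ± 0.15 log2, adjusted p = 0.0264). The last 7 called genes, *PGY1* among them, fell by 0.44 to 0.75 on the log2 scale. The other 6 were AT2G47610, AT1G27400, AT2G44120, AT1G67430, AT4G16720 and AT1G08360. AT1G67430, among the probe sets with the highest means, read 6705, 6064 and 6085 in Col-0 and 3921, 4199 and 4200 in *rcb-10* (-0.61 ± 0.11 log2, adjusted p = 0.0205). The 8 calls lost when arrays were centred were those of AT1G18540, AT3G06700, AT5G02870, AT1G27400, AT2G44120, *PGY1*, AT4G16720 and AT1G08360.

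Of the 18 genes that were not called, 13 had negative fitted changes, from -0.70 to -0.17 on the log2 scale, and in 8 of these the arrays did not overlap. Among these 13, AT3G16780 was nearest to the threshold, with 819, 578 and 645 in Col-0 and 365, 415 and 472 in *rcb-10* (-0.70 ± 0.18 log2, adjusted p = 0.0534). AT4G27090 read 7466, 7190 and 7002 in Col-0 and 5609, 5935 and 6049 in *rcb-10* (-0.30 ± 0.10 log2, adjusted p = 0.107), and it was the gene added by quantile normalization (adjusted p = 0.0349). AT2G34480, with 6552, 5072 and 6572 in Col-0 and 4051, 4678 and 5320 in *rcb-10*, overlapped between genotypes (-0.37 ± 0.17 log2, adjusted p = 0.198). The other genes without overlap were AT3G05560, AT5G27850, AT3G53430, AT4G17390, AT1G80750 and AT3G09630. The other genes with overlap were AT2G37190, AT5G48760, AT3G24830 and AT3G48960, the last of which had 1 array at or below background.

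In 5 of the 37 genes all *rcb-10* arrays lay above all Col-0 arrays, which held for 17.4% of all probe sets. None of the 5 passed the adjusted test on the deposited scale. AT3G13580 read 1591, 1388 and 1674 in Col-0 and 2067, 2149 and 2039 in *rcb-10* (0.43 ± 0.12 log2, adjusted p = 0.0641). AT5G23900 read 1885, 1881 and 2626 in Col-0 and 2808, 2877 and 2817 in *rcb-10* (0.43 ± 0.17 log2, adjusted p = 0.138). Col-0 replicate 3 stood above its fellows in AT5G23900, which was called higher without that array. AT3G51190, a gene not far above background, read 87.3, 84.7 and 79.6 in Col-0 and 117.1, 107.4 and 111.4 in *rcb-10* (0.42 ± 0.11 log2, adjusted p = 0.0518). AT3G14600 had a fitted change of 0.27 ± 0.11 (adjusted p = 0.153) and AT4G02230 one of 0.20 ± 0.12 (adjusted p = 0.326). With arrays centred on their medians, AT3G13580, AT3G51190 and AT3G14600 were called higher (adjusted p = 0.0288, 0.0227 and 0.0484), and after quantile normalization AT3G51190 alone was (adjusted p = 0.0317).

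The 3 genes named only through Supplementary Data 1 were all lower, and since that table was selected for change in these arrays in either direction, their change is no independent evidence. L24 bridges the ribosomal subunits. An L24 gene, *RPL24A*, read 3448, 2825 and 2481 in Col-0 and 1008, 1192 and 1283 in *rcb-10*, 2.50-fold lower. L23a lines the mouth of the exit tunnel, where factors meet the emerging chain. Its genes *RPL23AA* and *RPL23AB* had fitted changes of -1.07 and -1.14 on the log2 scale, with Col-0 means of 4301 ± 367 and 1754 ± 100.5 (SD, n = 3) against 2081 ± 416 and 804 ± 134. Both shared probe sets cover pairs of adjacent genes. The set of AT1G33120 and *PGY2* (*PIGGYBACK2*) had a fitted change of -0.44 ± 0.16 (adjusted p = 0.123). That of AT1G74050 and AT1G74060 had one of 0.29 ± 0.11 (adjusted p = 0.129), with every *rcb-10* array above every Col-0 array. Genes of such near-identical proteins can cross-hybridise, and signals of single members may include a relative's transcript.

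Other genes of the translation machinery were measured in the same fit. Of 46 further 60S protein genes, 18 (39.13%) were lower, against 10.2% of all probe sets, and none higher, with a median log2 change of -0.59. Among the 18, AT1G77940 alone fell at least 2-fold (-1.04 log2, adjusted p = 0.0190, limma), which 4.41% of all probe sets did. Of 47 genes of the small subunit (40S), 14 (29.79%) were lower and 1 higher, with a median of -0.42. The largest 40S fall was that of AT4G30800 (-1.70 log2, adjusted p = 0.010, limma). The gene called higher, AT5G09490, had a mean signal of 3.10 in Col-0 and 33.9 in *rcb-10*, both under the background value. Of 13 genes of 60S assembly factors, 4 were lower and none higher, with a median of -0.68, and AT1G52930, annotated as a Brix domain protein, fell 3.11-fold (adjusted p = 0.0249, limma). Only 5 translation factor genes were measured, with a median of -0.26, of which 1 was lower and none higher. The elongation factor gene AT5G12110 fell from signals of 635, 358 and 275 to 58.4, 42.1 and 51.6 (adjusted p = 0.00791, limma), close to the background of 43.8 and under it on 1 array, and the other 4 had fitted changes of -0.42 to -0.17. The 60S median of -0.61 stood beside these values, and no difference between lists was tested.

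**Figure D4:**
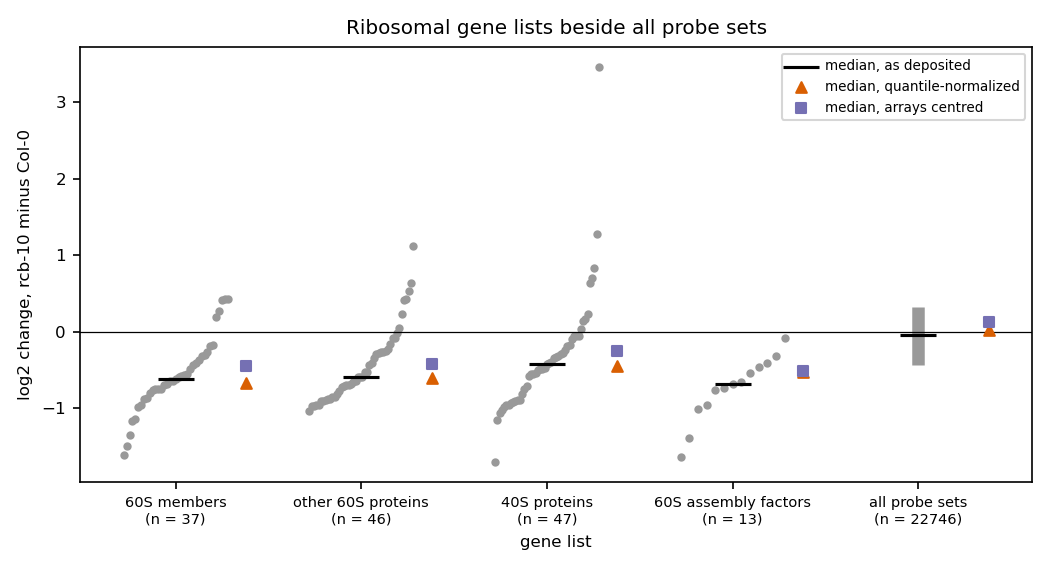
Log2 change between *rcb-10* and Col-0 (vertical axis) of each measured gene in the 60S list and 3 related lists, with medians on the deposited, quantile-normalized and array-centred scales, and for all 22746 probe sets the medians and the interquartile range (grey bar). The median of the 37 60S genes lies at -0.61, -0.67 and -0.44 on these scales, and the 40S gene at the top is AT5G09490, which is under background in both means.

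Markers of other cells gave little cover. None of the 11 listed markers of dividing cells had a probe set of its own. Through Supplementary Data 1 alone, 4 of them were seen and all were lower, *PCNA1* by 2.69-fold, *PCNA2* by 2.43-fold, *TSO2* by 2.47-fold and *SYP111* by 2.27-fold, in a table chosen for change. None of 5 seed storage markers was measured. The root hair gene *EXPA7* fell 2.08-fold (adjusted p = 0.0328, limma), a call lost after quantile normalization (0.0540) and centring (0.0535). The root gene *PYK10* had a fitted change of -0.09 (0.08 after centring). The summed signal of these 2 of 4 root markers was 18567 to 23415 in Col-0 and 18752 to 20095 in *rcb-10*. That sum is almost wholly *PYK10*, whose Col-0 mean was 20779 against 180 for *EXPA7*. The antenna gene *LHCB4.2*, the 1 measured of 4 shoot markers, had a fitted change of 0.20 (adjusted p = 0.303, limma), which was -0.01 after quantile normalization and 0.37 after centring, with signals of 18588 to 22354 in Col-0 and 22775 to 24258 in *rcb-10*. The part of dividing, root or shoot cells in the 60S changes was not tested.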

How the data were processed

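The authors hybridised RNA from 3 Col-0 and 3 *rcb-10* replicates to ATH1 arrays and processed the scans in GeneSpring GX with RMA background correction. The deposited file holds linear intensities, 1 per probe set and array, and after trimming 2% at both ends the arrays share 1 mean (500.0 units). Whether these linear signals derive from RMA output, and by which steps, is not stated. Log2 intensities of 22746 probe sets (64 array controls left out) were compared with limma 3.58.1 in R 4.3.3, with no filter or block, and p-values were adjusted by Benjamini-Hochberg over all of them. The fit was also run on simulated arrays with seeded changes and left many of them uncalled. A gene that was not called may therefore still have changed. Tables and plots were made in Python 3.11.15 (pandas 2.3.3, matplotlib 3.10.9). With 3 arrays per genotype the smallest p of an exact permutation test is 0.1, and the number of arrays limits the precision.

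The probe annotation assigned 13513 probe sets to 1 gene and 503 to several, and 8730 are unnamed here. Locus names come from the TAIR10.1 gene table. The members and the gene lists were chosen with earlier results of these data known. By rule the text names the called members with the largest falls or rises (up to 12 each way). It also names the members with the highest means and those known only through Supplementary Data 1. The rule asked for up to 3 called genes of each other list, and not all of these are named. The rule also asked for pairs of genes from the same protein family. It could not be applied, because the sources name the protein of too few members, and other members are named here to account for the list. Alternatives changed the scaling, the filter on dim probe sets, the probe sets tested, the variance model, array weights, the replicate block and the arrays included.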

Additional observations from a re-analysis of the deposited data

How the results depend on the processing

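On the deposited scale 19 60S genes were lower and none higher. With arrays centred on their medians 11 were lower, 3 higher and 3 lower by at least 2-fold, and the median log2 change moved from -0.61 to -0.44. With ordinary variances 11 were lower and 2 higher, beside 8.04% and 5.97% of all probe sets. The number higher was 1 after quantile normalization (7.58% of all probe sets), 2 without the dimmest 25% of probe sets (13.1%), with trended robust variances (10.6%) or with array weights (7.32%), and 3 with low signals raised to background (8.44%). In these last 4 settings 24, 26, 18 and 20 were lower, beside 20.0%, 15.6%, 10.7% and 12.3% of probe sets. Other 60S genes called lower numbered 10 after centring and 28 with trended robust variances, against 18. The 40S genes numbered 25 lower with trended robust variances against 14, and 2 higher with those variances, centring or array weights against 1. Leaving out each array in turn gave 3 to 9 60S genes lower, 0 to 1 higher, 3 to 5 lower by at least 2-fold, and medians of -0.69 to -0.52. Over all probe sets, 3.44% to 5.53% were then lower and 2.08% to 4.25% higher. The same refits gave 3 to 12 other 60S genes lower and 0 to 0 higher, and 3 to 8 40S genes lower and 1 to 1 higher. None of the 19 called 60S genes changed sign under these settings. Of the 18 others AT3G48960 did after centring and on leaving out the Col-0 array 1 or the *rcb-10* array 3. The causes were not tested. The sources do not state whether same-numbered arrays of the genotypes were grown or processed together. Their deviations from the genotype means correlated at 0.03, -0.02 and 0.02 over all probe sets, which cannot settle it. With the replicate number as a block, 0 of 22746 probe sets were called, and so 0 60S genes were lower, 0 at 2-fold or more, 0 other 60S genes and 0 40S genes either way. The 16 genes without a named probe set, 3 arrays per genotype and possible cross-hybridisation limit the account.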
